A study of Schizosaccharomyces pombe with 15 samples.

Results

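Deb1 binding in fission yeast (Schizosaccharomyces pombe) was described from a list of 351 chromatin immunoprecipitation peaks, which is every record of the deposited Deb1 list and 351 of the 5439 records in the 4 lists of the study. The Deb1 strain was homothallic (h90), carried the auxotrophic alleles ade6-M210, leu1-32 and ura4-D18, and had its deb1 gene tagged as deb1-3xFLAG-hph, so that the protein bore 3 copies of the FLAG epitope. Cells were grown in rich medium at 32 °C, held at 18 °C for 2 hours and fixed at 18 °C for 30 min, and DNA was precipitated with the FLAG antibody M2. The labels attach 2 precipitations and 2 inputs of this strain to the same list, so there is no replicate list, and the read depth is unknown. The fold of a peak is the authors' enrichment value for that peak, and no list of an untagged precipitation was used beside it.

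Lists for 3 other proteins served only for overlap. Atf1 and Pcr1, the subunits of a bZIP transcription factor, were tagged as atf1-3xFLAG-hph and pcr1-3xFLAG-hph in strains with the same markers that also carried CenHΔ::9xtetO-ura4, a replacement in the silent mating-type region that the Deb1 strain's genotype does not list. Orc1, a subunit of the origin recognition complex, was tagged as orc1::5xFLAG-orc1-kan in a strain with the same auxotrophic markers. All of these cells received the same cold shift. The lists held 1995 Atf1, 1567 Pcr1 and 1526 Orc1 peaks.

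Deb1 is annotated as a DNA-binding transcription factor. Long terminal repeats (LTRs) are the direct repeats that flank retrotransposons. Fission yeast carries full Tf2 elements with an LTR at either end and many lone LTRs left behind when the inner part was lost by recombination; the 5′ LTR holds the element's promoter.

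The Deb1 peaks fell mainly at LTRs and at gene promoters outside repeats. The word GGTAACA was in 98 of 112 intervals at LTRs (87.5%) and in 61 of 188 outside repeats (32.4%). Of the 351 peaks, 112 (31.9%) touched an annotated LTR, 30 touched a tRNA or 5S rRNA gene, 20 lay within 30 kb of a chromosome end and 1 lay in the mating-type region. The remaining 188 (53.6%) are called other places here. The following sequences, from the RefSeq assembly ASM294v3 like all those printed here, show the word in capitals at LTR copies near iec5, which encodes a subunit of the Ino80 chromatin remodeller, near SPAC22E12.02 and near imp4. Each had a peak, and each sequence is read along the strand of the LTR.
iec5: tattagtgataGGTAACAttataacccag
SPAC22E12.02: tattagtgataGGTAACAttataacccag
imp4: tattagtgataGGTAACAttataacccag
The 29 bases were identical in the 3 copies. The copies lie on chromosome 1, at chr1:3321466-3321823, chr1:5021560-5021908 and chr1:2474235-2474583, the last on the reverse strand, and their peaks had folds of 7.18, 7.17 and 6.58.

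The aligned bases of LTR copies without a peak are shown next, with the 7 bases that align to the word in capitals. They were the copies nearest to dbp10, cct6 and clr4.
dbp10: tctcagctataGATAACGatatatcctat
cct6: taatagtgataAGTAATAatataacctag
clr4: tattagttataGGTCACAatgcaatctag
These copies lie at chr1:402409-402782, chr2:942476-942820 and chr2:458478-458824, and all are in the forward orientation. The 3 were picked among copies without the word at the aligned place, and the 3 occupied copies above among those with it. The contrast between them is therefore no result. Not all copies without a peak were of this kind, since 19 copies that no peak touched read GGTAACA there, 1 of them with at least 90% identity to the reference form of the LTR. It lies on the 5′ side of Tf2-1, at chr1:1465332-1465680 on the forward strand, shown for comparison.
Tf2-1: tattagtgataGGTAACAttataacccag

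Outside repeats the word stood in other surroundings. The next sequences are those at aur1, erg11 and tpi1, which had 1 word close to the interval's midpoint, followed by loci with 2 words. Each is printed so that its first word reads GGTAACA.
aur1: attccttctcaGGTAACActattcggcaa
erg11: ccctattctcaGGTAACAaaattggattt
tpi1: cgttacatcaaGGTAACAaatttggcccc
SPBC8D2.11: caagtgtgGGTAACATGTTACCtgttagta
gma12: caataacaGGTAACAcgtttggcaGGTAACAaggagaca
nog2: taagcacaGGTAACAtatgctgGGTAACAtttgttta
The windows are chr1:598298-598326 for aur1 and chr1:577346-577374 for erg11, both on the reverse strand, and chr3:939272-939300 for tpi1 on the forward strand. Those with 2 words are chr2:1379398-1379427 for SPBC8D2.11 and chr1:2736243-2736279 for nog2 on the forward strand, and chr3:318759-318797 for gma12 on the reverse strand. None of these windows touched an annotated protein-coding gene. At SPBC8D2.11 the 2 words adjoined in opposite orientations, and at gma12 and nog2 they pointed the same way.

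The height of the peaks differed between these classes. At LTRs the fold ran from 3.44 to 7.68 with a median of 5.49. At other places it ran from 1.67 to 7.09 with a median of 3.90, at tRNA and 5S rRNA genes from 2.74 to 5.34 with a median of 3.56, and at chromosome ends from 1.77 to 4.22 with a median of 2.46. The ranges overlap, but 39 of the 50 peaks with a fold of at least 6 were at LTRs and the other 11 at other places. Widths followed another order. LTR intervals had a median width of 531.5 bp, other places 285 bp, tRNA and 5S rRNA genes 200 bp and chromosome ends 635.5 bp, against 367 bp over the whole list. The narrowest interval was 153 bp, nearest to the ribosomal protein gene rpl301, and the widest was 4565 bp, near the left end of chromosome 3.

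**Figure D1:**
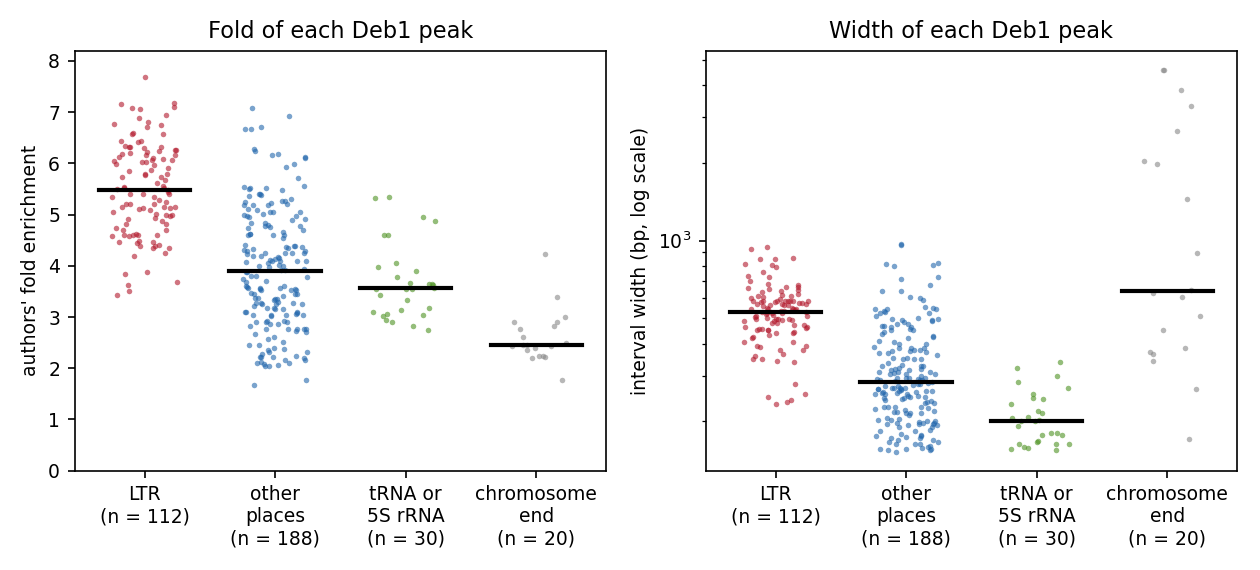
Authors' fold enrichment (left, linear axis) and interval width in bp (right, log axis) of each Deb1 peak by class, 1 point per peak, with a black line at the median. LTR peaks have the highest median fold (5.49), and the widest intervals, up to 4565 bp, are at chromosome ends. The 1 peak of the mating-type region is not drawn.

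A Deb1 peak touched 121 of the 238 annotated LTRs (50.8%), and 109 LTRs held the midpoint of an interval. Of the 122 LTRs with GGTAACA on either strand, 95 (77.9%, 95% Clopper-Pearson interval 69.5 to 84.9) held a midpoint, against 14 of the 116 without it (12.1%, 6.76 to 19.4). Among copies of at least 300 bp the counts were 93 of 115 with the word and 13 of 79 without. The intervals do not overlap in either comparison; they cover counting error only, and no test was run.

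Occupancy also moved with a copy's identity to the reference form of 349 bp, the most common length. Of copies with the word, 53 of 55 with at least 90% identity held a midpoint, and 31 of 33 with 80 to 90% identity. With 60 to 80% identity, 9 of 27 copies with the word (33.3%, 16.5 to 54.0) and 12 of 69 without it (17.4%, 9.32 to 28.4) held one, and these intervals overlap. Word and identity were not separated, since 88 of the 93 copies of at least 80% identity had the word; of the other 5, the 1 of at least 90% identity was occupied and the 4 of 80 to 90% were not. Where the aligned place read GGTAACA, 94 of 117 copies were occupied. In 58 copies the aligned place was a gap or missing, and 8 of these held a midpoint. The most common other reading, GATACTA, was found in 7 copies, none with a midpoint, and GGTAGCA in 4, of which 2 held one.

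In the 349 bp form of the LTR, of which there were 40 copies, the word began at base 207. The midpoints lay at a median of 148 bp from the LTR's start, with quartiles of 118 and 184 bp. Both quartiles thus lay before the word along the element. Peaks with a word had a median fold of 5.51 (n = 98) and those without one 5.13 (n = 14), and their ranges overlapped from 3.63 to 6.29.

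Reads from near-identical copies cannot be placed with certainty, and the sources used here do not say how such reads were handled. Of the LTR peaks with a midpoint in the repeat, 43 lay in intervals in which over 50% of the 50-base stretches occur elsewhere in the genome, and their median fold was 5.79. The 23 with under 10% of such stretches had a median fold of 4.92, still above the 3.90 of other places. The part of read placement in the height of LTR peaks, or in the number of copies that held one, was not tested. Copies that share reads are not separate observations, though the counts and exact intervals above treat them so. The same limit holds for the folds at Tf2 elements below.

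All 13 annotated Tf2 elements had a Deb1 peak at an end, 11 of them at both. At the 5′ side the fold ran from 4.46 at Tf2-7 to 7.11 at Tf2-8, with a median of 6.59 (n = 11). At the 3′ side it ran from 3.51 at Tf2-5 to 6.26 at Tf2-1, with a median of 4.60 (n = 13). The 5′ peak was the higher one in 8 of the 11 elements with both, for example 7.09 against 3.51 at Tf2-5 and 7.06 against 4.39 at Tf2-4. At Tf2-6, Tf2-7 and Tf2-10 the 3′ peak was the higher one, and Tf2-1 and Tf2-11 had a peak at the 3′ side alone. All 8 elements with a higher 5′ peak lie on the reverse strand, where the 5′ side is the right-hand one on the chromosome. Tf2-1, Tf2-6, Tf2-10 and Tf2-11 lie on the forward strand, and their higher or only peak was also on the right. Tf2-7, on the reverse strand, was the exception. The higher or only peak thus lay on the right of the chromosome at every element but Tf2-7. It lay on the 5′ side only at elements of the reverse strand. At Tf2-10 the 2 folds were nearly equal, 5.14 and 5.15. The cause of the difference between sides was not tested. Tf2-7 and Tf2-8 stand in tandem, and the peak of 4.46 between them counts as the 5′ peak of Tf2-7 and the 3′ peak of Tf2-8.

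LTR peaks lay close to genes. Their midpoints were upstream of the nearest coding start in 94.6% of cases, against 38.0% of all genome positions. Their median distance to it was 421 bp, against 685 bp over the genome, and 33 of the 112 lay from 300 to 400 bp upstream. Coding starts of Tf2 elements are among those used. The positions of LTRs without a peak were not set beside these values. The genes beside the highest were brl2, which encodes a ubiquitin ligase for histone H2B, with a fold of 7.68 and a summit 288 bp upstream of the start codon, iec5 with 138 bp and SPAC22E12.02 with 273 bp. Others were rpb6, a subunit shared by the RNA polymerases (6.81-fold), atg7, an activating enzyme of autophagy (6.71-fold), imp4 (6.58-fold) and atg4, the protease that processes Atg8 (6.41-fold). In all, LTR peaks put a summit in the promoter window, 1000 bp before to 200 bp after the coding start, of 115 protein-coding genes, Tf2 elements included.

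At other places 124 of the 188 summits (66.0%) lay in the promoter window, which covers 40.7% of the genome. The promoter window held a summit for 281 of 5113 protein-coding genes (5.5%), and for 148 of them (2.89% of the 5113) the peak was at other places. The highest of these was upstream of aur1, the inositol phosphorylceramide synthase of sphingolipid synthesis, on chromosome 1 from 598143 to 598490 with a fold of 7.09 and a summit 525 bp upstream of the start codon. SPCC1620.06C, a ribose-phosphate pyrophosphokinase gene, followed with 6.72, then rps27, a ribosomal protein gene whose summit lay just inside the start, with 6.68, and SPBC8D2.11 with 6.67. The alanine racemase gene alr2 had 6.28, the RNase MRP subunit gene rmp1 6.18, the GTPase-activating protein gene SPAC4G8.04 6.16 and mtx1, for the mitochondrial import protein metaxin, 6.13. Some high peaks had no start in the window, among them that of SPBC36.02C (6.92-fold), 2805 bp upstream, and that of cta3, a cation-transporting ATPase gene (6.10-fold), 1243 bp upstream.

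The list had no peak near deb1 itself, the nearest summit being 39213 bp away. For atf1 the nearest summit was 1493 bp upstream of the coding start, outside the window, but 49 bp upstream of the annotated start of the gene, in a peak of 5.52-fold that overlaps the gene's 5′ end. None of the summits nearest to pcr1 or to orc1 to orc6 was within the promoter window.

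By their summits, 228 of the 350 peaks that could be set on the reference (65.1%, 59.9 to 70.1) lay in the promoter window, which covers 40.7% of the genome, and 28 in coding sequence. The median distance from a summit to the nearest coding start was 559.5 bp.

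Positions relative to gene starts were measured from interval midpoints, because the summits stood off centre as described below. At other places 156 of 188 midpoints (82.98%) lay upstream of the nearest coding start, against 38.0% of all genome positions. The median distance to a coding start was 509 bp, against 685 bp over the genome, and to an annotated transcript start 174 bp, against 723 bp. Among the 61 peaks with the word the medians were shorter, 367 bp to a coding start and 118 bp to a transcript start. Coding sequence held 20 of the 188 midpoints (10.6%, 6.62 to 16.0) and 56.9% of the genome.

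**Figure D2:**
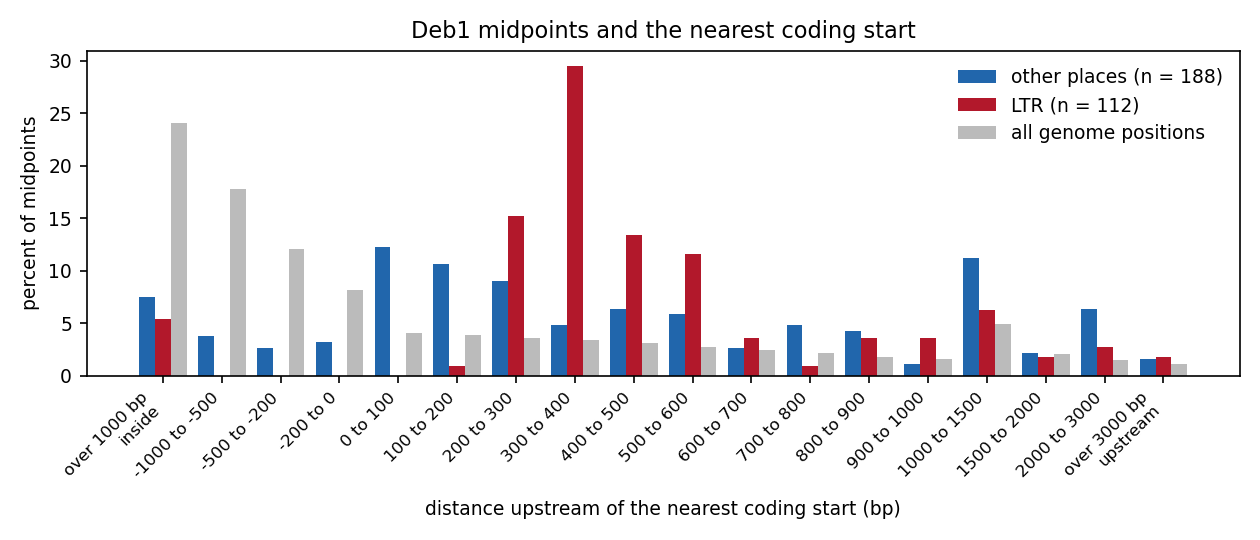
Percent of Deb1 midpoints at other places (blue) and at LTRs (red), and of all genome positions (grey), by distance in bp upstream of the nearest coding start; negative distances lie downstream of it, and the bins differ in width. LTR midpoints peak from 300 to 400 bp upstream (29.5%), and those at other places are spread from 0 to 300 bp and further.

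Of the 188 midpoints, 168 lay in spaces between the coding sequences of protein-coding genes. Such spaces include untranslated parts of genes, and 44 of the 188 midpoints lay inside an annotated protein-coding gene. Divergent spaces, from which both genes are read outward, held 83 (49.4%) and make up 36.5% of the spacer length. Tandem spaces held 78 (46.4%) of 48.8%, and convergent spaces, which hold no gene start, 7 (4.17%, 1.69 to 8.396) of 14.7%. The 157 spaces with a midpoint had a median length of 1681 bp, against 679 bp for all 5044, where a longer space has more room for a midpoint. Spaces over 2000 bp held 45.8% of the midpoints and 31.9% of the spacer length.

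Of the 61 other places with the word in the interval (95% interval of the share 25.8 to 39.6), 14 held at least 2, and 127 places held none. Within 50 bp of the summit the word was found at 49 of all 350 peaks (14%, 10.5 to 18.1). At other places, within 50 bp of the midpoint it was found at 45 (23.9%, 18.0 to 30.7), while 1.03% of genome positions are that close to one on either strand. GGTAACA was first picked on chromosome 1 of these data, so its count there is no independent result. It was near 18 of 83 midpoints on chromosome 1 and 15 of 43 on chromosome 3. On chromosome 2 it was near 9 of 33 left of the mating-type region and 3 of 29 right of it. That last stretch had no part in the choice of the word. The word was in the interval of 19.1% of the 47 peaks of lowest fold, of 34.0% and 31.9% of the next groups of 47 and of 44.7% of the 47 of highest fold, but the intervals widened as well, with medians of 212, 263, 321 and 442 bp. Within 50 bp of the midpoint, a measure that width does not set, the counts were 7, 11, 13 and 14 of 47, and their exact intervals overlap.

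Counts differed by the base before the word. AGGTAACA was within 50 bp of 36 of the 188 midpoints (19.1% against 0.321% of genome positions), GGGTAACA of 10 (5.32% against 0.115%) and CGGTAACA of 2. TGGTAACA was near none (0%, upper bound 1.94); it lies near 0.411% of positions, so fewer than 1 of the 188 midpoints would be near it at that rate, and the 0 shows no lack. The related word AGTAACA was near 28 midpoints (14.9% against 1.62%), and 37 intervals held AGTAACA but no GGTAACA. The core that ATF/CREB proteins bind, TGACGT, was near 15 (7.98% against 1.67%). Among non-coding positions alone the shares were 0.585% for AGGTAACA, 0.145% for GGGTAACA and 0.340% for TGGTAACA. Those for AGTAACA and TGACGT were 1.91% and 1.565%.

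Most copies of the word were not in a peak. Of the 1299 copies of GGTAACA in the reference, 156 (12.0%) had a Deb1 midpoint within 100 bp. Occupancy was 68.6% of the 118 copies in LTRs, 13.5% of 519 in other non-coding sequence and 0.778% of 643 in coding sequence. In non-coding sequence 49 of 203 copies preceded by A were occupied (24.1%, 18.4 to 30.6), 14 of 77 preceded by G (18.2%), 6 of 71 preceded by C (8.45%) and 1 of 168 preceded by T (0.595%, 0.0151 to 3.27). Copies with another within 100 bp were occupied in 25 of 44 cases (56.8%, 41.0 to 71.6) and lone copies in 45 of 475 (9.47%, 6.99 to 12.5). With A or G before the word the counts were 23 of 37 for copies with a neighbour and 40 of 243 for lone ones. Neighbouring copies lie in the same interval, so they are not separate observations. These counts, like those by promoter below, include chromosome 1, where the word was first picked.

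**Figure D3:**
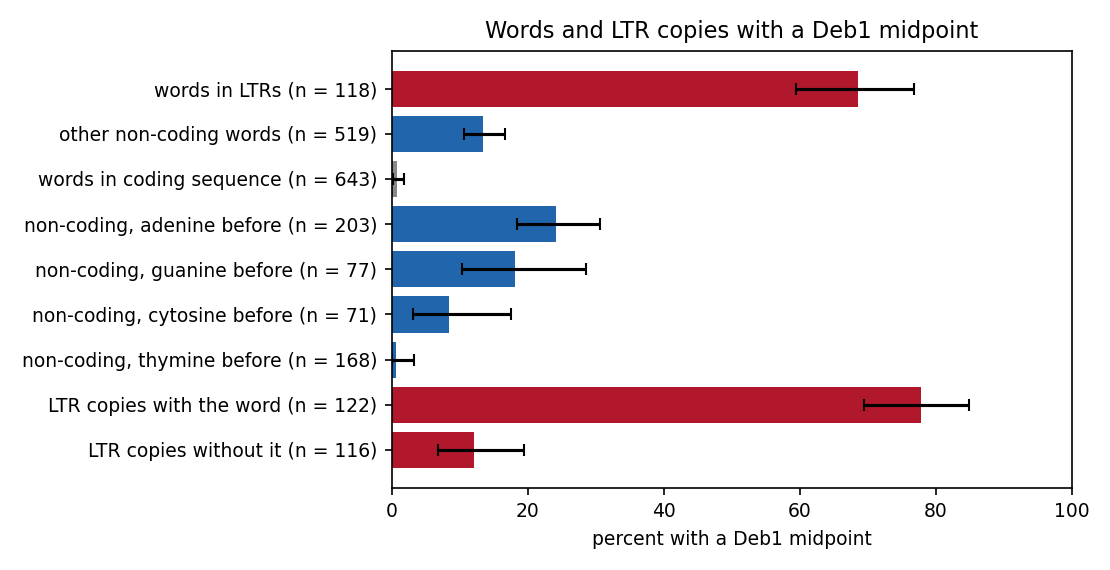
Percent of GGTAACA copies with a Deb1 midpoint within 100 bp, by location and by the base before the word, and percent of LTR copies that hold a midpoint, with and without the word. Bars are percentages with exact 95% intervals; copies preceded by thymine stand at 0.595% and copies in LTRs at 68.6%.

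Seen from promoters, 217 of 5113 genes had GGTAACA in the 300 bases before the coding start, and 46 of these (21.2%, 16.0 to 27.2) had a Deb1 summit in the window, against 235 of the 4896 without it (4.80%, 4.22 to 5.44). With AGGTAACA or GGGTAACA the count was 43 of 137 genes (31.4%), and with TGGTAACA 2 of 61 (3.28%). Summits of LTR peaks, words within LTRs and Tf2 genes are included in these counts. In intervals with 1 word, the word was on the strand of the nearest gene in 16 of 47 (34.0%, 20.9 to 49.3). Intervals with several words gave 15 neighbouring pairs, of which 10 pointed the same way. The first bases were 14 to 23 bp apart in 9 of the 15, among them the pairs before pas1 (17 bp), cct1 (20 bp) and SPBC36.01C (23 bp).

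Genes with the word within 50 bp of the summit at other places served varied functions. By fold they began with SPBC8D2.11, mtx1, gma12, a Golgi galactosyltransferase gene (5.40-fold), aah1 (5.26-fold), the arginase gene aru1 (5.21-fold) and SPCC18.02 (5.18-fold). Further down came asp1, an inositol pyrophosphate kinase gene (4.55-fold), nog2, for a GTPase of ribosome export (4.40-fold), the fumarase gene fum1 (4.20-fold), the purine synthesis gene ade4 (4.14-fold) and sec31, for a COPII vesicle coat protein (4.12-fold).

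The summit as used here, the interval start plus the given offset or else the midpoint, stood to the right of the word. At other places the word's centre was at a median of -48 bp from the summit, with 44 words left and 14 right, and at 7 bp from the interval midpoint, with 28 left and 31 right. For 93 of the 351 peaks the offset pointed beyond the interval. These values move with how the lists were cut after peak calling, on which the sources used here are silent.

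**Figure D4:**
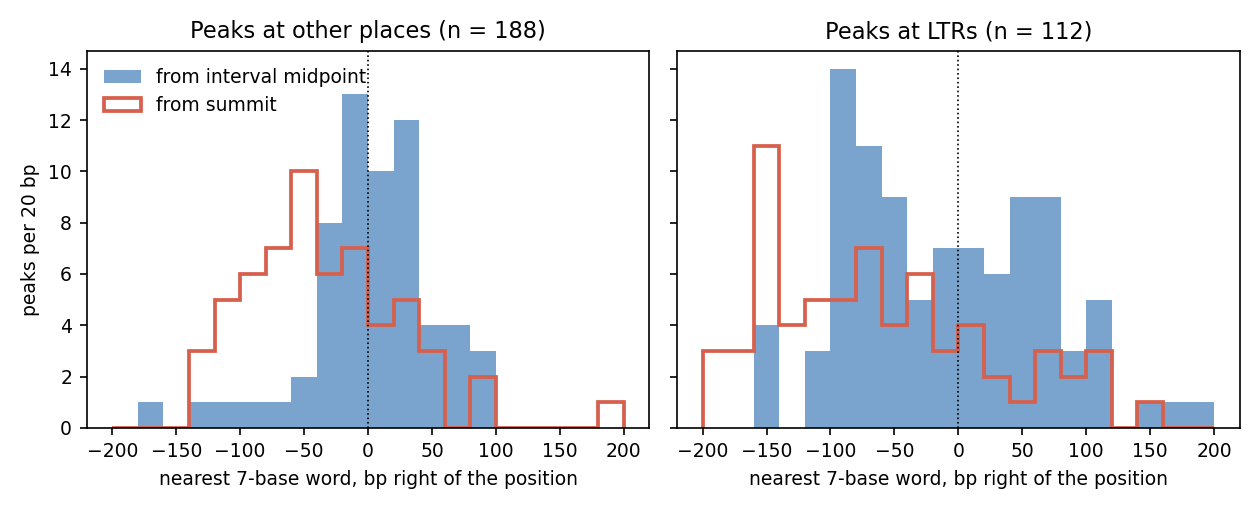
Number of Deb1 peaks per 20 bp by the position of the nearest GGTAACA, in bp right of the interval midpoint (filled) or of the summit (outline), for other places and for LTRs. Where the offset fell outside the interval, the midpoint stands in for the summit. Words over 200 bp away are not drawn. At other places the words centre on the midpoint and sit to the left of the summit.

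Among the gene lists, counts were read against the 5.5% of all protein-coding genes. Of the genes of glycolysis and gluconeogenesis, 6 of 18 had a Deb1 summit in the window, all at other places. These were tpi1 (triosephosphate isomerase, 5.19-fold), adh4 (alcohol dehydrogenase, 4.99-fold), pyk1 (pyruvate kinase, 4.97-fold), pgk1 (phosphoglycerate kinase, 4.90-fold), pfk1 (phosphofructokinase, 3.03-fold) and gpm1 (phosphoglycerate mutase, 2.92-fold). Their summits were 202 to 840 bp upstream, and of the 6 intervals only that of tpi1 held the word. Of the stress protection genes 6 of 20 had a summit, namely tps1 (trehalose synthesis, 4.58-fold, at an LTR), the catalase gene ctt1 (3.53-fold), the peroxiredoxin gene tpx1 (3.41-fold), the thioredoxin genes trx2 (2.94-fold, at a tRNA or 5S rRNA gene) and trx1 (1.67-fold), and zwf1 (glucose-6-phosphate dehydrogenase, 2.28-fold). None of these 6 intervals held the word.
All 6 glycolysis intervals overlapped an Atf1 peak and 5 a Pcr1 peak, and all 6 of the stress protection genes overlapped both, while over the whole list the shares were 75.2% and 69.5%, so these counts do not set the lists apart.

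Ribosomal protein genes had a summit at 8 of 141 (5.67%), 4 of them at other places, and genes named mug, for meiotic upregulation, at 6 of 91 (6.59%). The wtf genes, a family of meiotic drivers, had one at 4 of the 16 annotated as protein-coding (25%), or 4 of 25 with the other annotated members, and all 4 peaks were at LTRs. Of the stress kinase pathway 2 of 16 had one, mak2 and mcs4, of the nitrogen transporters ptr2 and amt3 of 10, and of the cell wall and membrane genes aur1 and ecm33 of 21. The heterochromatin list had raf2 alone of 26, at an LTR, the H2B ubiquitination list brl2 of 6, at an LTR, the phosphate list asp1 of 8, the glucose transporters ght3 of 8 and the DNA-binding factors sap1 of 19. No member had a summit in the window among 6 ATF/CREB factors, 11 histones, 28 replication and G1/S genes, 20 cell cycle genes, 20 mating and meiosis genes, 15 flocculation genes and 15 iron genes. Each of these lists is small, so the absence of a member shows no lack of Deb1 in that list. It also holds for this window only. Beyond it, for example, summits lay 1493 bp upstream of the coding start of atf1 (5.52-fold) and 1471 bp upstream of that of the iron gene fep1 (4.95-fold). A peak of 2.35-fold held a word 1559 bp upstream of the cell cycle gene pas1. The lists were not counted from transcript starts.

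Peaks at tRNA and 5S rRNA genes had the highest share of Orc1 overlap of the classes drawn. Deb1 peaks of any class touched 35 of 171 annotated tRNA genes (20.5%). Of the 30 intervals of this class, 4 held GGTAACA (13.3%, 3.76 to 30.7). An Orc1 peak overlapped 29 of the 30 (96.7%, 82.8 to 99.9), a Pcr1 peak 26 and an Atf1 peak 23, and every one was overlapped by Atf1 or Pcr1. With no untagged list beside them, whether a precipitation without the tag gives peaks there was not tested.

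At chromosome ends 13 of the 20 peaks were on chromosome 3, 6 near tlh2, a gene for a telomere-linked helicase, on chromosome 2 and 1 on chromosome 1. Their intervals were mostly repeated sequence, with a median of 98.2% of the 50-base stretches found elsewhere, and only 2 held the word. None of the 19 copies of GGTAACA within the end zones had a midpoint within 100 bp. The mating-type peak ran from 2144427 to 2144740 on chromosome 2 in the list's own positions, with a fold of 5.94, and was overlapped by all 3 other lists. It was compared with no annotation.

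Overlap with the other lists, of at least 1 bp, varied by class. Over the whole list 264 of 351 Deb1 peaks (75.2%) overlapped an Atf1 peak, 244 (69.5%) a Pcr1 peak and 115 (32.8%) an Orc1 peak; 58 overlapped none of the 3 and 84 all. At LTRs 89.3% overlapped Atf1 and 12.5% (7.01 to 20.1) Orc1. At other places the shares differed by the word: with it, 49.2% (36.1 to 62.3) overlapped Atf1 and 13.1% (5.84 to 24.2) Orc1, and without it 73.2% (64.7 to 80.7) and 40.9% (32.3 to 50.02). These intervals do not overlap. For Pcr1 the shares were 45.9% (33.1 to 59.2) and 66.1% (57.2 to 74.3), and the intervals do overlap. LTR intervals were wider, with a median of 531.5 bp against 285 bp at other places, which leaves more room for an overlap. By summits within 100 bp, Atf1 was at 47 of the 112 LTR peaks and at 76 of the 188 other places. Orc1 was at 5 and 29 of them. The share of the genome that each list covers was not set beside these values.

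**Figure D5:**
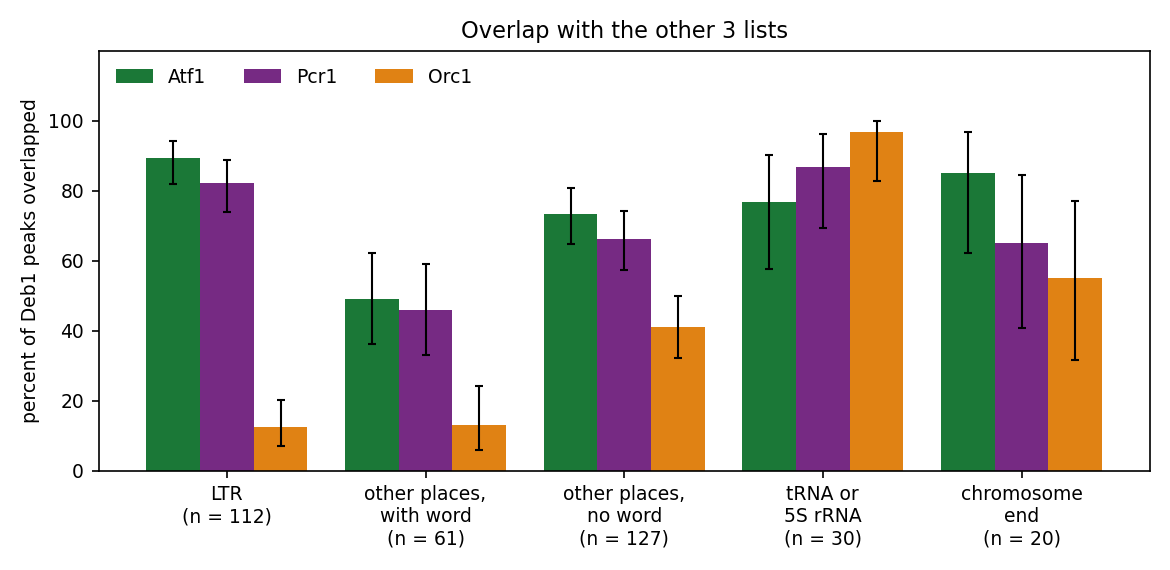
Percent of Deb1 peaks overlapped by an Atf1, Pcr1 or Orc1 peak, by class, with other places split by GGTAACA in the interval; error bars are exact 95% intervals. Orc1 overlap is lowest at LTRs (12.5%) and at other places with the word (13.1%), and highest at tRNA and 5S rRNA genes (96.7%).

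The 50 other places that none of the 3 lists touched were close to gene starts. Their midpoints lay at a median of 135 bp from the nearest coding start, against 734 bp for the 138 with an overlap, and 33 of the 50 were within 300 bp upstream of it, against 27 of the 138. GGTAACA was in 25 of these 50 intervals (50%, 35.5 to 64.5) and in 36 of the 138 (26.1%, 19.0 to 34.2). Their folds ran from 1.76 to 6.67 with a median of 3.77, and those of the 138 from 1.67 to 7.09 with a median of 3.95, so the ranges overlapped nearly fully. Among the 50 were the peaks of SPBC8D2.11, SPAC4G8.04, mtx1, vid27, rpl31, nog2, sec31 and vma9. At the 47 places shared by all 3 other proteins the word was in 5 intervals (10.6%), and the median distance was 885 bp.

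The peaks were spread over the chromosomes unevenly. Chromosomes 1, 2 and 3 held 138, 114 and 99 peaks, or 2.47, 2.51 and 4.04 per 100 kb. At other places alone the densities were 1.49, 1.37 and 1.75 per 100 kb. Chromosome 3 also had 79 of the 238 LTRs, of which peaks touched 39, and 13 of the 20 end peaks. Neighbouring summits were a median of 22562, 29774 and 13927 bp apart on the 3 chromosomes (21483 bp over all), and 30 neighbours were within 2 kb. Of these, 11 were both at other places, such as the summits near pcs2 and hsr1, 763 bp apart, and near gpd3, 616 bp apart, and 10 were both at chromosome ends. The longest stretches without a summit measured 195884 bp on chromosome 1, 235435 bp on chromosome 2 and 148838 bp on chromosome 3.

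The 54 peaks right of the mating-type region on chromosome 2 were moved by 12220 bp before the annotation was used, since the lists extend beyond the reference there. At that shift 9 midpoints were within 50 bp of GGTAACA and 14 of the 54 intervals touched an LTR, while with no shift there were none of either. The count of words was highest, at 11, for a shift of 12190 bp, and no more than 3 far from it. Distances to genes there carry at least that uncertainty.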

How the data were processed

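Chromatin immunoprecipitation with a FLAG antibody was followed by Illumina sequencing, per the labels' protocols. Tools named in the submitters' processing notes are MACS2 2.1.2, Bowtie 1.2.3 and bedtools. Their settings and the genome build were not given in the sources used here. Each deposited peak has the authors' fold enrichment (a ratio), a −log10 p-value, a −log10 q-value, a score and a summit offset. Peak names carry the label of 1 library, and depth per sample is unknown. Peaks were ranked by fold and filtered on fold or q within the list.

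The summit was the interval start plus the offset, or the midpoint where that fell outside the interval. Genes, LTRs and sequence came from the RefSeq assembly ASM294v3, read with Python 3.11.15 and Biopython 1.88. Words were searched on both strands. Shares carry exact Clopper-Pearson 95% intervals from scipy 1.17.1, for counting error only. LTR copies were aligned pairwise to a copy of the common length. The scripts were checked on simulated positions. Classes were assigned by annotation, and no test between conditions was possible.

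Named genes were the 30 peaks of highest fold, up to 6 members with a peak per gene list, peaks with GGTAACA within 50 bp of the summit outside repeats, Tf2 elements, close or extreme peaks, and the tagged proteins' genes; other names were chosen after their values were seen. Members and lists were chosen with earlier results of these data known. Alternatives were other fold and q limits, windows, words and peak subsets. Midpoints in place of summits and windows from transcript starts were added after seeing the data.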

Additional observations from a re-analysis of the deposited data

How the results depend on the processing

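No paired analysis was possible because the Deb1 list is 1 list with no column per replicate, and for the same reason no replicate could be left out. Of 67 alternative values for the 11 results, 47 stayed within the 95% interval of the reported value (medians by order statistics) or, for counts, within 1.5 times. Without repeats and chromosome ends, 189 peaks and 148 genes with a summit in the window were left, the coding share was 13.8%, Atf1 overlap 65.6%, the median width 286 bp and the median spacing 40792 bp. Keeping folds of at least 3 gave 70.3% of summits in the promoter window, 39.2% of peaks at an LTR and a spacing of 29366 bp. Keeping only summits inside their interval gave 8.53% near the word and a spacing of 30357 bp. A window of 500 bp before the coding start gave 37.7% and 148 genes, and one placed at the transcript start, added after seeing the data, 72.9%. With the summit inside the repeat the LTR share was 18.3%. The word was near 26.0% of summits within 100 bp, GGTAAC near 19.4%, and GGTAACA near 23.7% of midpoints, an alternative added after seeing the data. Summits within 100 bp gave 43.3% overlap with Atf1 and 16.8% with Orc1. The cause of the difference between summits and midpoints was not tested. Depth and replicate spread are unknown, and every share describes 1 list.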
